A study of Mus musculus with 16 samples.

Results

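The Bcl2 family decides whether the outer membrane of the mitochondrion stays closed or opens to release cytochrome c, the step that commits a cell to intrinsic apoptosis. The effectors BAX and BAK form the pores. Anti-apoptotic members such as BCL2, BCL-xL and MCL1 hold the effectors in check, and BH3-only proteins, which are made or activated on stress, either engage the effectors or occupy the anti-apoptotic members. In blood vessels the same proteins take part in the regression of unused capillaries, and the BH3-only protein BIM is known for that role in the eye.

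Here 10 genes of the family were followed by symbol or Ensembl identifier. They are the BH3-only genes Bbc3 (PUMA), Pmaip1 (NOXA), Bcl2l11 (BIM), Bid and Bad, the effectors Bax and Bak1, and the anti-apoptotic genes Bcl2, Bcl2l1 (BCL-xL) and Mcl1. All 10 were found, among 38926 genes listed for the mpEC and bmEC libraries, 21603 for the Yap1/Taz libraries and 38926 for the Lats2 libraries. All 10 also reached the mean of 1 FPKM required for testing in each comparison.

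Bulk RNA of endothelial cells (ECs) sorted from bone of C57BL/6 mice was measured in 16 libraries. The first comparison set 3 libraries of bmECs, from the diaphyseal marrow cavity, against 3 of mpECs, from the metaphysis next to the growth plate. These libraries are labelled wildtype and carry no age in the labels. The methods describe sorting them from mice with the Cdh5-mT/nG reporter. The second set 3 libraries labelled Yap1/Taz iΔEC (Yap1 flx/flx, Wwtr1 flx/flx, Cdh5CreERT2 positive) against 3 controls with the same floxed alleles and no Cre, all at postnatal day 21. Wwtr1 encodes TAZ. The third set 2 Lats2 iΔEC libraries (Lats2 flx/flx, Cdh5CreERT2 positive) against 2 Lats2 flx/flx controls without Cre, with no age in the labels. Cdh5CreERT2 is a tamoxifen-inducible recombinase driven by an endothelial promoter, so that controls lack the transgene as well as the deletion. Where the labels give no age, the cells were sorted from bones at 3 weeks. The labels number the replicates, and the methods call them biological without saying that each came from another animal, so p-values measure the spread between these libraries.

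Levels are FPKM, in which the fragments counted for a gene are divided by its length and by the size of the library. Each set of libraries was normalised separately, so levels from different sets are placed side by side without a test. Fold changes (log2FC) are differences of mean log2(FPKM + 1), a scale that understates changes of low genes, with limma's two-sided p-values adjusted over all genes tested by the Benjamini-Hochberg method. A gene was called at an adjusted p under 0.05.

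The targeted genes were read first. Wwtr1 stood at 10.01, 9.88 and 10.3 FPKM in the Yap1/Taz controls and at 15.3, 19.6 and 19.5 FPKM in the libraries labelled Yap1/Taz iΔEC. It was therefore higher where the label says it was deleted (log2FC 0.78, SE 0.12, limma adjusted p = 0.0272). Yap1 was low in both groups, at 1.07, 1.62 and 0.995 FPKM against 1.43, 1.04 and 0.989 FPKM, and overlapped (log2FC -0.04, adjusted p = 0.934). Every direction given for these libraries rests on labels that Wwtr1 goes against and that Yap1 does not bear out. Lats2 was at 23.4 and 24.0 FPKM in controls and 19.2 FPKM in each Lats2 iΔEC library, which did not overlap but did not pass the test (log2FC -0.29, SE 0.11, adjusted p = 0.125). Values are per whole gene and do not isolate the floxed exons, and 42.4% of the Lats2 exon bases are shared with the same-strand gene Gm49361.

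The 10 endothelial marker genes were detected in every library, at summed levels of 1035 to 1309 FPKM in the mpEC and bmEC libraries, 559 to 744 FPKM in the Yap1/Taz libraries and 1856 to 2002 FPKM in the Lats2 libraries. Single endothelial markers still differed between groups, with 3 called higher and 4 lower in bmECs and 1 higher and 2 lower in Lats2 iΔEC libraries. Markers of blood cells were present as well. The 9 erythroid markers summed to between 25799 and 55773 FPKM in mpECs and bmECs, 3995 and 5968 FPKM in the Yap1/Taz libraries, and 246 and 3361 FPKM in the Lats2 libraries. The libraries held 4737532 to 14788750 reads on genes, recovered from the FPKM values.

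The members differed widely in level. Bax was the most abundant of the 10 in mpECs, at 188 ± 18.6 FPKM (SD, n = 3), followed by Mcl1 at 32.0 ± 1.21 FPKM and Bad at 30.4 ± 1.89 FPKM, whose ranges overlapped. Bcl2l1, Bid, Bak1, Pmaip1 and Bcl2 came next, and Bcl2l11 (2.31 ± 0.466 FPKM) and Bbc3 (1.94 ± 0.338 FPKM) were lowest with overlapping ranges. The order in bmECs was the same. In the Yap1/Taz controls the most abundant member was instead Mcl1, at 224 ± 30.9 FPKM (SD, n = 3), with Bak1 (27.4 ± 2.69 FPKM) and Bax (23.6 ± 6.06 FPKM) following and overlapping. In the Lats2 controls Mcl1 (109 ± 0.442 FPKM, SD, n = 2) and Bax (101 ± 3.16 FPKM) stood close together, without overlap, and Bak1 was last at 0.753 ± 0.120 FPKM. The effector pair was thus read at very different proportions. Bax gave 95.0% to 97.1% of the summed effector FPKM in the mpEC and bmEC libraries, 39.9% to 55.1% in the Yap1/Taz libraries and 99.1% to 99.3% in the Lats2 libraries. Of the Bak1 exon bases, 25.5% lie opposite Ggnbp1, and of the Bax exon bases 12.2% are shared on the same strand with Gm45808. Whether reads were counted by strand is not given in the sources used here, so reads in these stretches cannot be assigned with certainty.

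**Figure D1:**
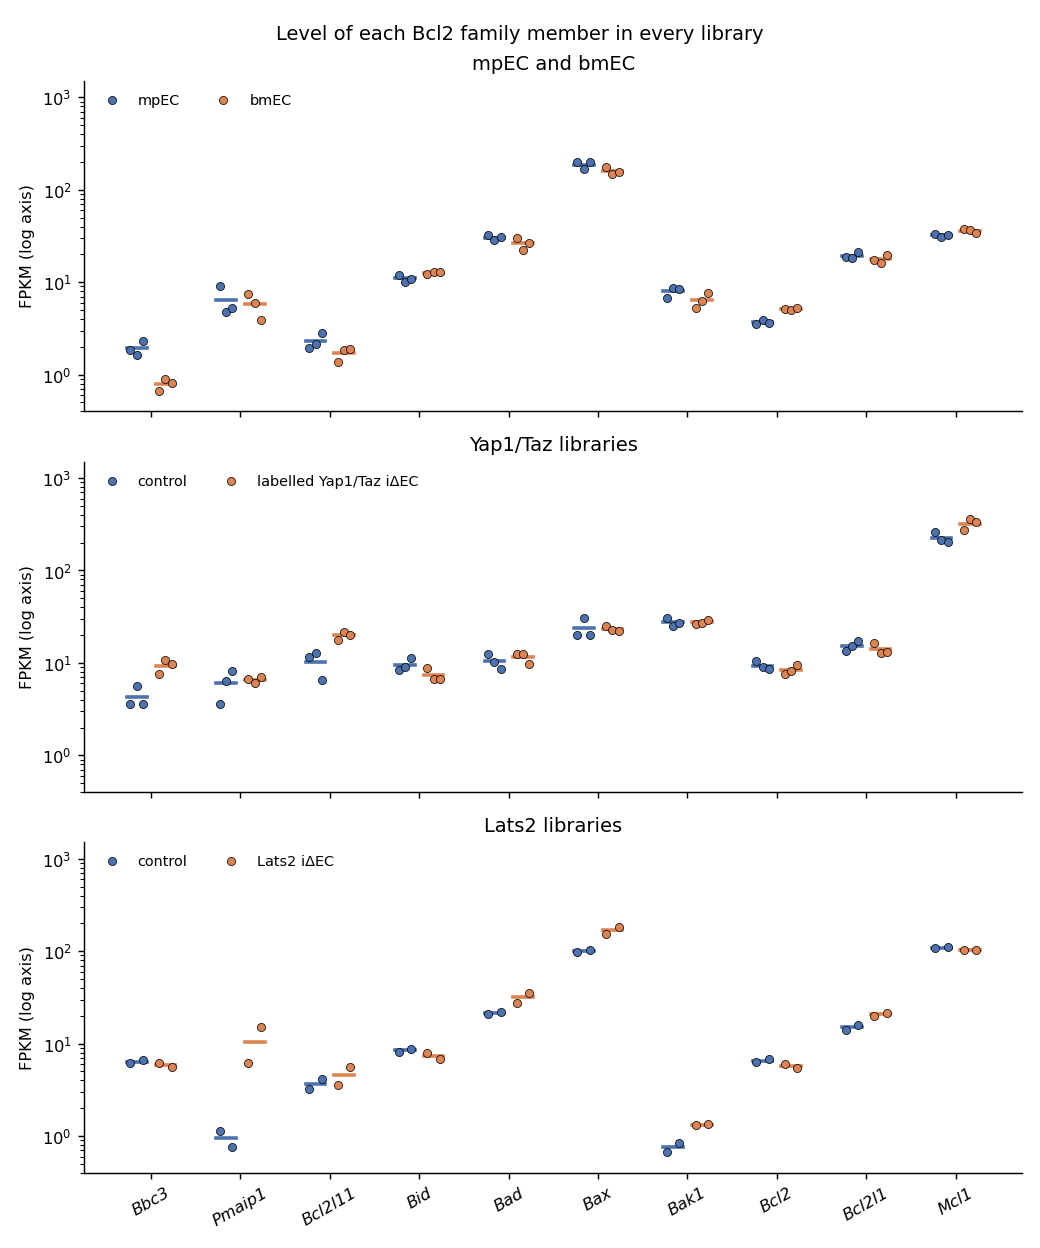
FPKM on a log axis for the 10 members in every library, with 1 point per library and a bar at the group mean. Bbc3 separates mpECs from bmECs and separates the Yap1/Taz groups, Pmaip1 separates the Lats2 groups most widely, and Bax is the highest member in the top panel while Mcl1 is highest in the middle panel.

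Bases upstream of the start sites are shown for Bbc3 and Bcl2l11, the BH3-only genes with the largest fold changes in the libraries labelled Yap1/Taz iΔEC, and for Bax, called in the Lats2 comparison. They come from RefSeq on GRCm38.p6, read in the direction of the gene and ending at the base before the start. Capitals mark matches, on either strand, to ACGTG (the core of the hypoxia response element), GGAATG (a TEAD element, the partner of YAP1 and TAZ), GTAAACA (a FoxO element) or the 10-base p53 element. CACGTG holds the first motif on both strands.
Bbc3, chr7:16310011-16310260, plus strand: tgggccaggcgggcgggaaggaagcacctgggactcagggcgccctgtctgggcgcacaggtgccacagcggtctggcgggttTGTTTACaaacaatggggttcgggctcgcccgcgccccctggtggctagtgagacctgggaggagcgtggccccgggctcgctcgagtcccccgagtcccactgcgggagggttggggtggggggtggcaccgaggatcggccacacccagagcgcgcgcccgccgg
Bcl2l11, chr2:128125788-128126037, plus strand: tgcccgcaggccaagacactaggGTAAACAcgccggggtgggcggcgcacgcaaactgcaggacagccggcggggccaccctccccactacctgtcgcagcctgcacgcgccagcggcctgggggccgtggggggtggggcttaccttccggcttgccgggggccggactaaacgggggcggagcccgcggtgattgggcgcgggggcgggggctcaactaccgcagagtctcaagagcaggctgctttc
Bax, chr7:45466899-45467148, minus strand: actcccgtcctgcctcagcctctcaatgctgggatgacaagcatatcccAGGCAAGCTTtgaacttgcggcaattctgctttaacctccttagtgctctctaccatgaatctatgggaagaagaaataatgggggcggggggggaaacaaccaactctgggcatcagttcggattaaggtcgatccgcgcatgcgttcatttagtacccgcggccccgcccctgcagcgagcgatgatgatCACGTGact

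RefSeq gave 15 such windows of 250 bases for 9 of the 10 members. The Bbc3 window shown is 1 of 3 for that gene and the Bcl2l11 window 1 of 2, each chosen for its match. The Bbc3 window lies inside the gene as GENCODE draws it (chr7:16308393-16318205) and holds 0 annotated exon bases. The FoxO letters were in 2 of the 15 windows, those of Bbc3 and Bcl2l11 printed here, and in 3.17% of all 32851 windows. ACGTG was in 2 windows (Bax and another start of Bbc3) against 16.6% of all, and GGAATG in 2 (Bcl2l1 and Mcl1) against 12.6% of all. The p53 half-site was in 1 (Bax) against 7.13% of all. These matches describe letters and do not show binding.

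In bmECs against mpECs, the question was how the ECs of the 2 bone compartments differ. Of the 10 members, 1 was called higher (Bcl2) and 1 lower (Bbc3), where 13% of the 11422 genes tested were called higher and 10.5% lower. The groups did not overlap for 5 members, and for 41.3% of all genes tested. The median log2 fold change of the members was -0.17, and that of all genes was -0.00.

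Bbc3 encodes PUMA, a BH3-only protein that binds all of the anti-apoptotic members and can engage the effectors, and is a target of p53. Its level was 1.85, 1.65 and 2.31 FPKM in the mpEC libraries and 0.666, 0.895 and 0.804 FPKM in the bmEC libraries. Every bmEC library lay below every mpEC library, with a bmEC mean 0.407 times that of mpECs (log2FC -0.71, SE 0.14, limma adjusted p = 0.00958). The values rest on 34.9 to 48.6 recovered reads in mpECs and 11.6 to 20.1 in bmECs. Bbc3 was called in each of the 14 alternatives that tested it (adjusted p = 0.00495 to 0.0390), with log2FC from -0.62 to -1.28. As in any bulk sample, fewer cells that express a gene and less of its RNA per cell cannot be told apart.

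Bcl2, the anti-apoptotic member that gives the family its name, was measured at 3.52, 3.94 and 3.62 FPKM in mpECs and at 5.15, 4.96 and 5.20 FPKM in bmECs. All bmEC libraries were higher, by 1.38 times in the mean (log2FC 0.38, SE 0.10, adjusted p = 0.0284). The call was lost when any 1 of the 6 libraries was left out (adjusted p = 0.0502 to 0.0919), with the direction kept.

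The other anti-apoptotic members did not pass the test. Mcl1, a short-lived protein on which many cells depend, was at 33.1, 30.7 and 32.2 FPKM in mpECs and 37.4, 36.3 and 33.7 FPKM in bmECs, without overlap (log2FC 0.16, SE 0.08, adjusted p = 0.203). Bcl2l1, which encodes BCL-xL, was at 18.9, 18.1 and 21.3 FPKM against 17.3, 16.0 and 19.6 FPKM (log2FC -0.13, SE 0.11, adjusted p = 0.409). Its groups overlapped.

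Neither effector passed it. Bax was at 198, 166 and 199 FPKM in mpECs and 175, 149 and 155 FPKM in bmECs, with 1 mpEC library inside the bmEC range (log2FC -0.23, SE 0.10, adjusted p = 0.158). It passed only after quantile normalization (log2FC -0.35, adjusted p = 0.0274). Bak1 was at 6.83, 8.74 and 8.47 FPKM against 5.20, 6.33 and 7.69 FPKM, and its groups overlapped (log2FC -0.29, SE 0.15, adjusted p = 0.207).

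Among the remaining BH3-only genes, Bcl2l11 encodes BIM, which binds every anti-apoptotic member and can engage the effectors. It was at 1.94, 2.17 and 2.83 FPKM in mpECs and 1.38, 1.84 and 1.90 FPKM in bmECs, apart but not past the test (log2FC -0.29, SE 0.15, adjusted p = 0.218). Bid, whose protein is cut by caspase-8 and carries death receptor signals to the mitochondrion, was at 12.0, 10.1 and 10.9 FPKM against 12.3, 12.9 and 12.97 FPKM. Its groups were also apart, in the opposite direction (log2FC 0.20, SE 0.09, adjusted p = 0.175). Bad, which survival kinases inactivate by phosphorylation, was at 32.2, 28.4 and 30.6 FPKM against 29.7, 22.5 and 26.6 FPKM and overlapped (log2FC -0.21, adjusted p = 0.223). Pmaip1 encodes NOXA, which binds MCL1. It varied within groups, at 9.08, 4.77 and 5.25 FPKM against 7.53, 5.91 and 3.89 FPKM (log2FC -0.11, SE 0.26, adjusted p = 0.794).

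Within each library, the log2 ratio of Bax to Bcl2 FPKM was 5.66 ± 0.231 in mpECs and 4.97 ± 0.106 in bmECs (SD, n = 3 each). No bmEC library reached the mpEC range of 5.40 to 5.81. The log2 ratio of Bbc3 to Mcl1 was -4.06 ± 0.227 in mpECs and -5.51 ± 0.260 in bmECs, again apart. Bbc3 and Mcl1 were already apart in opposite directions, so this ratio is not a separate result. A ratio within a library is unaffected by multiplying all its values by a constant, though not by quantile normalization, and it shows unequal levels of the members and not which of them moved.

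Of the other family genes, 2 of 7 tested effector or BH3-only relatives were called higher and 1 lower, and 0 of the 2 tested anti-apoptotic relatives were called. Bnip3, a mitophagy receptor and hypoxia target, rose from 12.6 ± 1.33 to 25.6 ± 3.33 FPKM (log2FC 0.96, limma adjusted p = 0.00116), and its homolog Bnip3l rose from 100.3 ± 12.7 to 142 ± 19.4 FPKM (log2FC 0.50, adjusted p = 0.0283). Bik, a BH3-only gene, fell from 27.0 ± 5.82 to 16.4 ± 0.808 FPKM (log2FC -0.67, adjusted p = 0.0144). Downstream of the mitochondrion, 1 of 14 tested genes of the apoptosome and caspase list was called higher and 1 lower. Casp8, the initiator caspase that cuts BID, was higher in bmECs at 165 ± 16.2 FPKM against 98.6 ± 5.92 FPKM.

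Inhibitors of apoptosis were called higher in 4 of 7 tested genes and lower in 1, with a median log2 fold change of 0.44. Naip2 had the largest rise (log2FC 1.35, adjusted p = 0.000816), Birc3 rose by 0.59 (adjusted p = 0.00852) and Birc5, a mitosis gene by its main role, fell by 0.87 (adjusted p = 0.00331), all on the log2 scale. The other 2 called higher, named after their values were seen, were Birc2 and Cflar, an inhibitor of caspase-8 activation. Of 16 tested p53 and p53 target genes, 0 were called higher and 2 lower, namely Phlda3 (log2FC -1.39, adjusted p = 0.000152) and Sesn1 (-0.35, adjusted p = 0.0182). Of 10 tested transcription factors known to act on BH3-only genes, 1 was called higher, Hif1a (log2FC 0.95, adjusted p = 0.000528), and 0 lower. Of 10 genes for turnover and phosphorylation of the family, 1 was called higher, Pim3, a kinase that phosphorylates BAD (log2FC 1.31, adjusted p = 0.00221).

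Genes that tissue dissociation and sorting induce were higher in some bmEC libraries but not in all. Of 10 tested, 3 were called higher in bmECs (Jun, Ier3 and Junb) and the median log2 fold change was 1.15. The summed level of the 10 ran from 931 to 1350 FPKM in mpECs. It was 3069 FPKM in bmEC 1, 3621 FPKM in bmEC 2 and 1096 FPKM in bmEC 3, which lay inside the mpEC range. The 9 neutrophil markers all had negative fold changes (median -0.66), with 1 called, and summed to 11620 to 27767 FPKM in mpECs and 9444 to 13869 FPKM in bmECs. The 8 osteoblast and stromal markers summed to 139 to 543 FPKM in mpECs and 69.9 to 94.7 FPKM in bmECs, but of the 5 tested 2 were called lower and 1 higher. Erythroid markers had 6 of 9 positive fold changes (median 0.50, 1 called higher). They summed to 25799 to 48237 FPKM in mpECs and 39005 to 55773 FPKM in bmECs. Of the remaining lists, 6 of 7 B cell, 5 of 6 macrophage and monocyte markers and the 1 tested T and NK cell marker had negative fold changes, and 6 of 6 megakaryocyte and platelet markers positive ones. Among the macrophage and monocyte markers 1 was called higher and 1 lower, and 1 B cell marker was called lower. The part of all these lists in the differences of Bbc3, Bcl2 and the other genes named in this comparison, such as Bnip3l, was not tested.

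**Figure D2:**
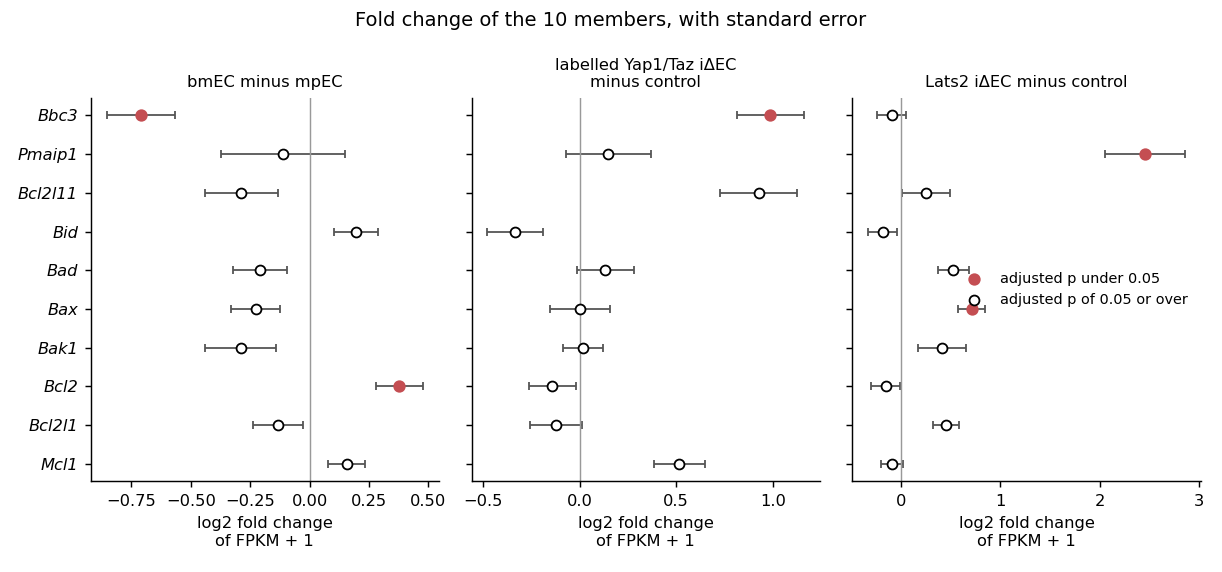
Fold change of each member in the 3 comparisons, as the difference of mean log2(FPKM + 1) with its standard error. The panels have separate scales, filled points passed an adjusted p of 0.05, and these were Bbc3 and Bcl2 on the left, Bbc3 in the middle, and Pmaip1 and Bax on the right.

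In the libraries labelled Yap1/Taz iΔEC against their controls, 1 of the 10 members was called higher (Bbc3) and 0 lower, with 0.883% of the 11320 genes tested called higher and 0.424% lower. The groups did not overlap for 3 members and for 23.6% of all genes tested. These 3 were Bbc3, Bcl2l11 and Mcl1, each higher in the libraries labelled Yap1/Taz iΔEC. The median log2 fold change of the members was 0.07 and that of all genes -0.00.

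Bbc3 was at 3.57, 5.57 and 3.62 FPKM in controls and 7.57, 10.8 and 9.64 FPKM in the libraries labelled Yap1/Taz iΔEC. The lowest labelled library was above the highest control, and the mean was 2.20 times that of controls (log2FC 0.99, SE 0.17, limma adjusted p = 0.0387). The call depended on single libraries. Left out in turn, control 1 gave an adjusted p = 0.0577, control 3 gave 0.0923, iΔEC 2 gave 0.202 and iΔEC 3 gave 0.1599, while the fold change stayed between 0.88 and 1.16 over all 15 alternatives. The call was also lost without a filter on low values (adjusted p = 0.106) and without the variance trend (adjusted p = 0.0712). Of all genes, 0 of 16044 were called higher without the filter and 10 of 11320 without the trend, against 100 in the main fit. Without iΔEC 2 or iΔEC 3, 0 of all 11320 genes were called higher.

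Bcl2l11 was at 11.5, 12.9 and 6.56 FPKM in controls and 17.9, 21.5 and 20.2 FPKM in the labelled libraries. All labelled libraries were higher, with control 3 lowest by a wide margin, but the gene did not pass the test (log2FC 0.93, SE 0.20, adjusted p = 0.0626). It passed in 2 of 15 alternatives, with limma-voom on recovered reads (adjusted p = 0.0183) and with only genes of at least 5 FPKM tested (adjusted p = 0.0469).

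Mcl1, the most abundant member here, was at 260, 211 and 202 FPKM in controls and 275, 357 and 332 FPKM in the labelled libraries. The groups were apart by a narrow gap between control 1 and iΔEC 1 (log2FC 0.52, SE 0.13, adjusted p = 0.0871). It passed in 3 of 15 alternatives, the strongest being limma-voom (adjusted p = 0.0390). The summed BH3-only FPKM was 40.7 ± 3.06 in controls and 54.6 ± 2.31 in labelled libraries (SD, n = 3 each). The summed anti-apoptotic FPKM was 249 ± 30.1 and 344 ± 40.1. Each sum lay apart between the groups. The anti-apoptotic sum was mostly Mcl1, which gave 88.6% to 91.5% of it in controls and 91.9% to 94.5% in labelled libraries. The log2 ratio of Bbc3 to Mcl1 was -5.74 ± 0.474 in controls and -5.11 ± 0.0705 in labelled libraries. It was apart by a narrow gap, with control 2 at -5.24 and iΔEC 1 at -5.18. Both genes were already apart on their own, so the ratio is not a separate result.

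The other 7 members overlapped between the groups and none passed the test. Bax was at 20.1, 30.6 and 20.1 FPKM against 24.9, 22.6 and 22.1 FPKM (log2FC 0.00, SE 0.15, adjusted p = 0.997), and Bak1 at 30.3, 24.9 and 27.1 FPKM against 26.5, 27.2 and 29.3 FPKM (log2FC 0.02, SE 0.10, adjusted p = 0.962). The sign of each effector's fold change turned under quantile normalization. Bcl2 was at 10.4, 9.05 and 8.65 FPKM against 7.59, 8.11 and 9.52 FPKM (log2FC -0.14, SE 0.12), and Bcl2l1 at 13.6, 15.2 and 17.5 FPKM against 16.6, 12.7 and 12.97 FPKM (log2FC -0.12, SE 0.13). The log2 ratio of Bax to Bcl2 was 1.31 ± 0.412 and 1.47 ± 0.250 and overlapped.

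For the BH3-only genes, Bid was at 8.43, 9.08 and 11.3 FPKM in controls and 8.87, 6.65 and 6.74 FPKM in labelled libraries, with 1 labelled library inside the control range (log2FC -0.33, SE 0.14, adjusted p = 0.265). Bad was at 12.5, 10.1 and 8.61 FPKM against 12.4, 12.4 and 9.65 FPKM (log2FC 0.13, SE 0.15). Pmaip1 was at 3.58, 6.42 and 8.24 FPKM against 6.64, 6.01 and 6.98 FPKM (log2FC 0.15, SE 0.22), with the controls spanning the labelled libraries. Bcl2l11 supplied 17.1% to 29.3% of the BH3-only FPKM in controls and 33.5% to 38.0% in labelled libraries.

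**Figure D3:**
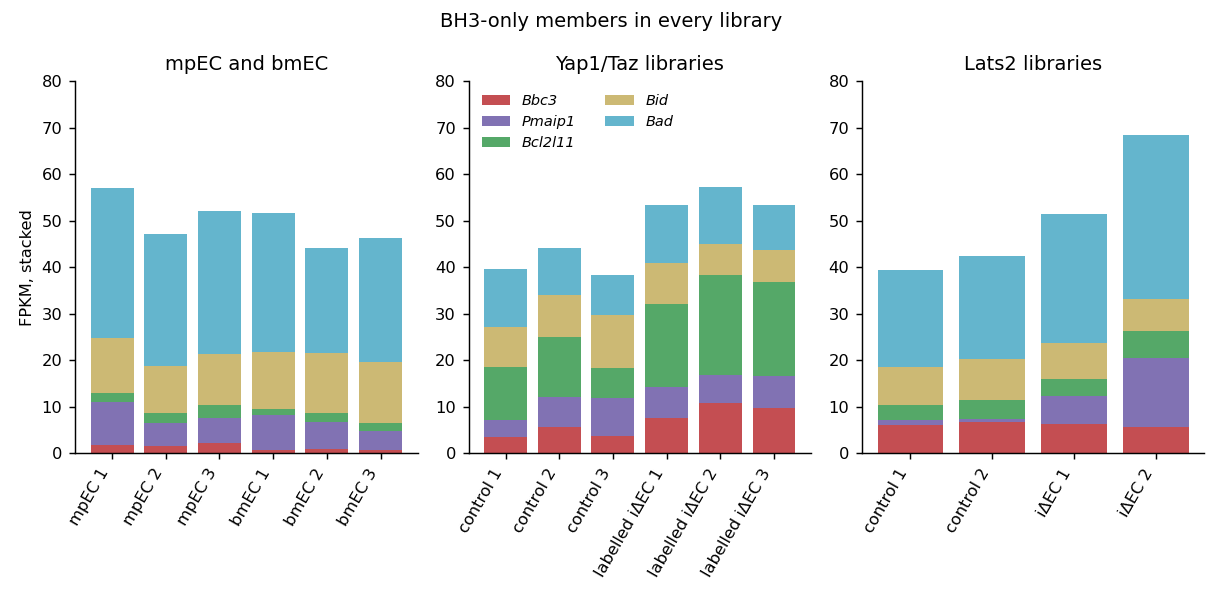
Stacked FPKM of the 5 BH3-only members in every library, on axes from 0. The stack grows in the libraries labelled Yap1/Taz iΔEC mainly through Bcl2l11 and Bbc3, and in the Lats2 iΔEC libraries through Pmaip1 and Bad.

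Among 11 tested transcription factors known to act on BH3-only genes, 1 was called higher and 1 lower. Atf4, the main factor of the integrated stress response, rose from 144 ± 2.95 to 210 ± 5.11 FPKM (log2FC 0.54, SE 0.09, limma adjusted p = 0.0347). Myc fell from 43.1 ± 4.25 to 22.9 ± 3.76 FPKM (log2FC -0.89, SE 0.13, adjusted p = 0.0235). Of 17 tested p53 and p53 target genes 0 were called, with 14 positive fold changes and a median of 0.22. No gene was called among 2 tested anti-apoptotic relatives, 7 effector or BH3-only relatives, 15 apoptosome and caspase genes, 8 inhibitors of apoptosis, 10 turnover and phosphorylation genes and 10 sorting stress genes.

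The 10 endothelial markers all had positive fold changes in these libraries (median 0.29, 0 called), and their sum ran from 559 to 573 FPKM in controls and 643 to 744 FPKM in labelled libraries. All 7 B cell markers had negative ones (median -0.39, 0 called), with sums of 259 to 310 FPKM and 217 to 222 FPKM. Osteoblast and stromal markers summed to 40.5 to 48.8 FPKM in controls and 20.3 to 32.0 FPKM in labelled libraries, with 2 of 7 tested called lower. Erythroid, neutrophil, and T and NK cell sums overlapped. Macrophage and monocyte sums overlapped too, and megakaryocyte and platelet sums, with 1 of 5 tested called higher, ran from 158 to 177 FPKM and from 172 to 195 FPKM. The part of these shifts in the levels of Bbc3, Bcl2l11 and Mcl1 was not tested.

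In Lats2 iΔEC against control, 2 of the 10 members were called higher (Pmaip1 and Bax) and 0 lower, with 11.8% of the 12453 genes tested called higher and 9.98% lower. With 2 libraries a group, 8 members did not overlap, and neither did 68.2% of all genes tested. The median log2 fold change of the members was 0.33 and that of all genes -0.00.

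Pmaip1 encodes NOXA, a BH3-only protein that binds MCL1 and promotes its breakdown, and is a known target of p53 and of stress-induced factors. It lies at chr18:66458533-66465565 on the plus strand. It was at 1.14 and 0.762 FPKM in controls and 6.11 and 15.0 FPKM in Lats2 iΔEC libraries. Both mutant libraries were higher, by 11.1 times in the mean, and differed from each other more than the controls did (log2FC 2.46, SE 0.40, limma adjusted p = 0.0177). The control values rest on 15.5 and 12.4 recovered reads and the mutant values on 62.9 and 203. Pmaip1 made up 1.80% and 2.90% of the BH3-only FPKM in controls and 11.9% and 21.8% in Lats2 iΔEC libraries.

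Bax, at chr7:45461697-45466898 on the minus strand, was at 99.2 and 104 FPKM in controls and 152 and 184 FPKM in Lats2 iΔEC libraries. The mean was 1.65 times that of controls (log2FC 0.71, SE 0.14, adjusted p = 0.0259). Leaving out control 1, control 2 or Lats2 iΔEC 2 ended the calls of Pmaip1 (adjusted p = 0.159, 0.158 and 0.0528) and Bax (adjusted p = 0.217, 0.185 and 0.0668), with the directions kept. The log2FC of Pmaip1 was 1.87 without Lats2 iΔEC 2 and 3.04 without Lats2 iΔEC 1, so its size rests on which mutant library is used. That of Bax was 0.47 after quantile normalization, still called (adjusted p = 0.0389). In the fits without a control library 0 of all 12453 genes were called, the lone control being taken to vary like the mutant libraries. Testing every gene without a filter on low values also ended them (adjusted p = 0.0501 for Pmaip1 and 0.0540 for Bax).

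The second effector, Bak1, was near the lower limit, at 0.668 and 0.838 FPKM in controls and 1.32 and 1.34 FPKM in mutants, which corresponds to 7.997 and 11.99 against 11.99 and 15.99 recovered reads. Its groups did not overlap and it did not pass the test (log2FC 0.41, SE 0.24, adjusted p = 0.267). Summed effector FPKM was 102 ± 3.28 in controls and 169 ± 22.6 in mutants (SD, n = 2 each), almost entirely from Bax.

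Bad was at 20.7 and 22.1 FPKM in controls and 27.7 and 35.4 FPKM in mutants, apart but not past the test (log2FC 0.53, SE 0.16, adjusted p = 0.0663). It passed in 1 of 13 alternatives, without Lats2 iΔEC 1 (log2FC 0.70, adjusted p = 0.0401). Of its exon bases, 20.48% lie opposite Gpr137. The anti-apoptotic Bcl2l1 was likewise higher and apart, at 13.98 and 15.9 FPKM against 20.1 and 21.5 FPKM (log2FC 0.45, SE 0.13, adjusted p = 0.0637). It passed when only genes of at least 5 FPKM were tested (adjusted p = 0.0498).

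None of the remaining members passed the test. Mcl1 was at 109 and 110 FPKM against 103 and 103 FPKM, and Bcl2 at 6.32 and 6.76 FPKM against 6.08 and 5.48 FPKM, each slightly lower and apart (log2FC -0.09, SE 0.11, and -0.15, SE 0.14). Bid, at 8.15 and 8.85 FPKM against 7.91 and 6.85 FPKM, was also lower and apart (log2FC -0.18, SE 0.14, adjusted p = 0.397). Bbc3, called in the other comparisons, was at 6.11 and 6.61 FPKM against 6.20 and 5.60 FPKM and overlapped (log2FC -0.09, SE 0.14, adjusted p = 0.671). Bcl2l11 was at 3.20 and 4.10 FPKM against 3.56 and 5.65 FPKM and overlapped (log2FC 0.25, SE 0.24). Summed anti-apoptotic FPKM overlapped, at 131 ± 2.14 and 130 ± 1.16 (SD, n = 2 each).

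The log2 ratio of Bax to Bcl2 was 3.96 ± 0.0237 in controls and 4.85 ± 0.302 in Lats2 iΔEC libraries (SD, n = 2 each), a difference of 0.90 with no overlap. The difference was 0.59 after quantile normalization. Bax and Bcl2 were already apart in opposite directions, so the lack of overlap is not a separate result. The log2 ratio of Bbc3 to Mcl1 was -4.11 ± 0.0757 and -4.13 ± 0.112 and overlapped.

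**Figure D4:**
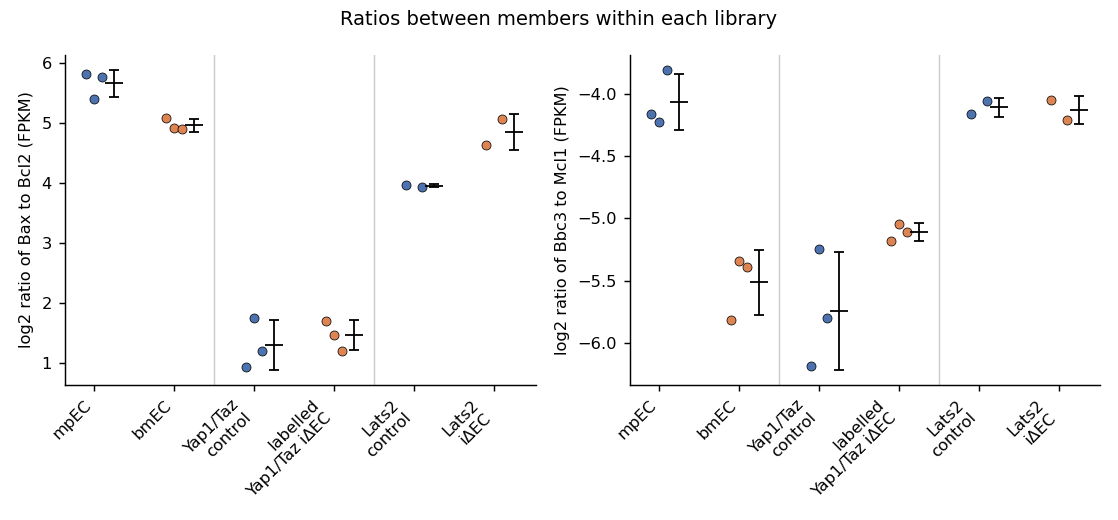
Log2 ratios of Bax to Bcl2 and of Bbc3 to Mcl1 FPKM, 1 point per library, with the mean and SD of each group beside its points. The Bax to Bcl2 ratio is apart between mpECs and bmECs and between the Lats2 groups, and the Bbc3 to Mcl1 ratio is apart between mpECs and bmECs and between the Yap1/Taz groups.

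Genes downstream of the family changed in both directions. Of 15 tested apoptosome and caspase genes, 4 were called higher and 1 lower. Cycs, which encodes cytochrome c, rose from 8.34 ± 0.356 to 21.7 ± 4.14 FPKM (log2FC 1.27, SE 0.17, limma adjusted p = 0.0125), and the mitochondrial channel gene Vdac3 rose too (log2FC 0.63, adjusted p = 0.0265). Also called in this list, and named after their values were seen, were Vdac1 (log2FC 0.55) and the initiator caspase gene Casp9 (log2FC -0.59), the partner of APAF1. The list's median log2 fold change was -0.28. Of 7 tested inhibitors of apoptosis, 1 was called higher and 2 lower. Birc2, which encodes cIAP1, fell from 15.4 ± 0.0357 to 4.81 ± 1.09 FPKM (log2FC -1.51, adjusted p = 0.0104) and Birc3, which encodes cIAP2, fell from 11.1 ± 0.393 to 6.29 ± 0.969 FPKM (log2FC -0.74, adjusted p = 0.0297), while the mitotic Birc5 rose (log2FC 0.84, adjusted p = 0.0247).

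Of 15 tested p53 and p53 target genes, 4 were called higher and 2 lower, with a median log2 fold change of -0.02. Cdkn1a, the cell cycle inhibitor p21, rose from 31.3 ± 2.00 to 79.1 ± 19.4 FPKM (log2FC 1.29, adjusted p = 0.0150), and Phlda3, an inhibitor of AKT, rose from 34.8 ± 3.42 to 80.7 ± 18.2 FPKM (log2FC 1.18, adjusted p = 0.0170). Sesn1 fell from 28.2 ± 4.83 to 10.1 ± 3.22 FPKM (log2FC -1.42, adjusted p = 0.0193). The remaining called genes, named after their values were seen, were Trp53 itself (log2FC 0.50, adjusted p = 0.0395) and the death receptor gene Tnfrsf10b (log2FC 0.76, adjusted p = 0.0369), which rose, and Trp53inp1 (log2FC -1.07, adjusted p = 0.0309), which fell. Among 9 tested transcription factors known to act on BH3-only genes, 2 were called higher, Atf3 (log2FC 1.22, adjusted p = 0.0358) and Myc (0.85, adjusted p = 0.0257), and 1 lower, Nfkb1 (-1.12, adjusted p = 0.0105).

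Of 7 tested effector or BH3-only relatives 0 were called higher and 1 lower. It was Bmf, a BH3-only gene named after its values were seen, which fell from 7.32 to 1.54 FPKM (log2FC -1.72, adjusted p = 0.0146). None of the 5 anti-apoptotic relatives reached 1 FPKM. Of 10 turnover and phosphorylation genes, 0 were called higher and 1 lower, Pim3 (log2FC -0.68, adjusted p = 0.0244). Of 10 sorting stress genes 0 were called. A panel of 8 pro-apoptotic genes that the study chose on these same libraries had 5 called higher and 0 lower, with Tnfrsf9, Cycs and Bcl10 changing most and Bax also called. It includes Bax, Bak1 and Bad, and having been chosen on these samples it is not independent evidence of its direction.

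Markers of blood cells were lower in the Lats2 iΔEC libraries, along with the changes of Pmaip1 and Bax. All 9 erythroid markers had negative fold changes (median -2.58, 4 called), with sums of 2206 to 3361 FPKM in controls and 246 to 1294 FPKM in mutants. All 9 neutrophil markers did too (median -1.65, 6 called), with sums of 1937 to 2888 FPKM and 706 to 850 FPKM. B cell markers were called lower in 5 of 6 tested, with sums of 89.1 to 102 FPKM and 27.5 to 33.1 FPKM, and macrophage and monocyte markers in 2 of 6, with sums of 571 to 681 FPKM and 71.7 to 301 FPKM. Megakaryocyte and platelet markers (1 of 4 called lower) and T and NK cell markers (1 of 2 called lower) had lower sums as well, and 2 of the T and NK genes and 1 of the platelet genes were at 0 in every mutant library. Endothelial markers summed to 1856 to 2002 FPKM in controls and 1882 to 1919 FPKM in mutants, and osteoblast and stromal markers to 41.9 to 85.0 FPKM and 58.7 to 63.2 FPKM. The part of the blood cell shift in the levels of the members was not tested.

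**Figure D5:**
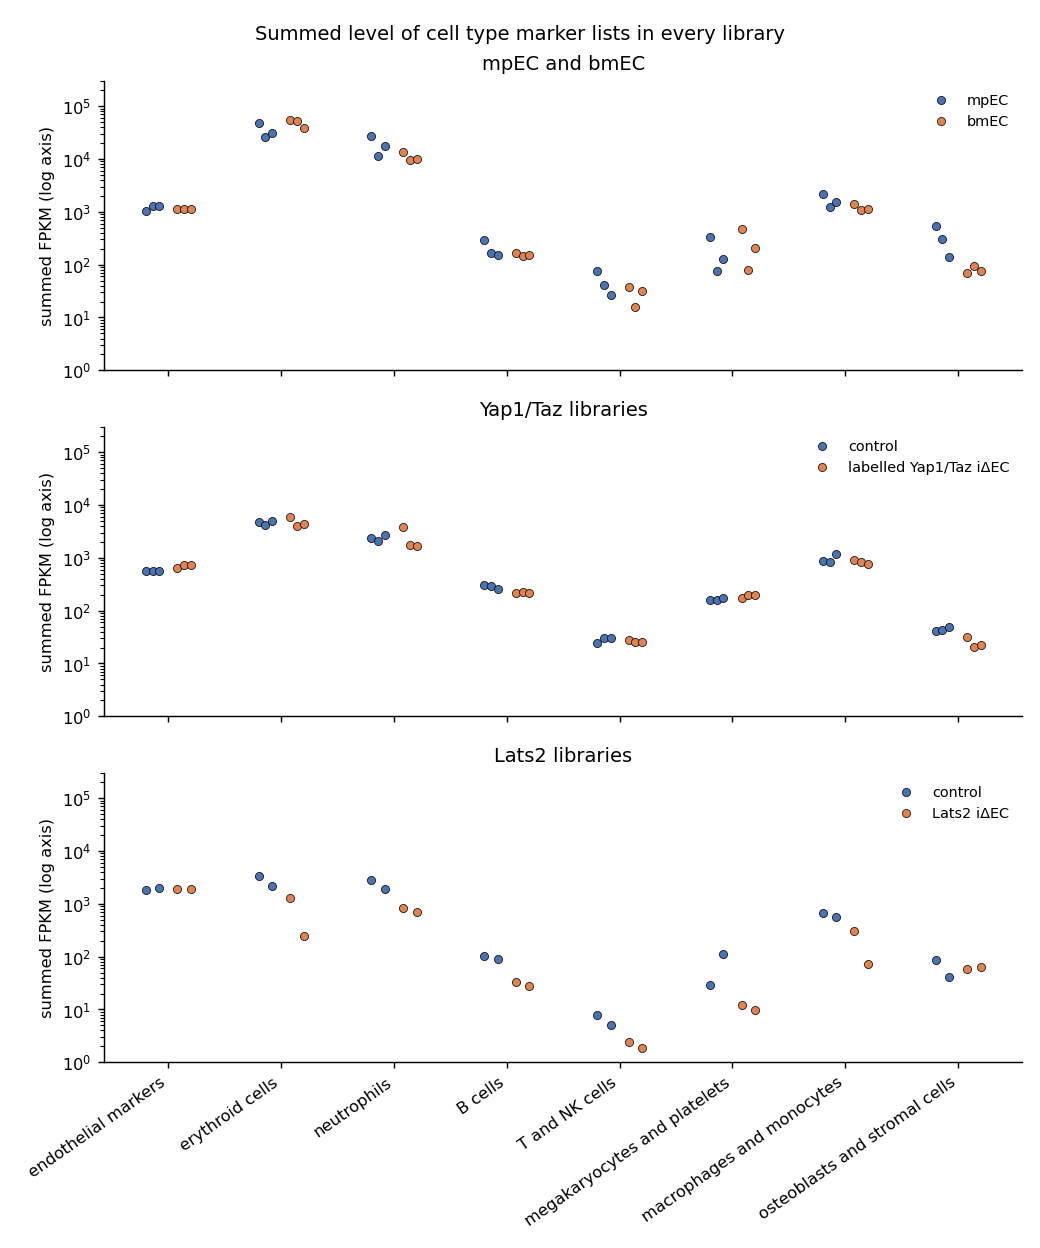
Summed FPKM, on a log axis, of 8 lists of cell type markers in every library, 1 point per library. The 6 blood cell lists lie lower in both Lats2 iΔEC libraries than in both controls, while the endothelial sums lie between 1856 and 2002 FPKM in these 4 libraries.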

How the data were processed

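RNA-seq of sorted bone ECs was analysed in 16 libraries. According to the methods, the authors made libraries with a stranded total RNA kit, mapped paired reads to mm10 (GRCm38) with TopHat, obtained gene counts from HTSeq 0.6.1 and used DESeq2 for their own tests. The authors deposited FPKM values, and how counts became FPKM is not given in the sources used here. From the FPKM values, log2(FPKM + 1) was tested with limma 3.58.1 under R 4.3.3 (1 group term, empirical Bayes with a mean-variance trend), per comparison, over genes whose mean reached 1 FPKM, with Benjamini-Hochberg adjustment over all of them. Reads were recovered from FPKM with GENCODE exon lengths. Of low values, 62.4% to 70.0% per library lay within 0.02 of a whole read, so these reads were not used in the main test. They served an alternative (limma-voom with trimmed-mean scaling), the library totals, the reads given for single genes and the comparison of replicates. For Bbc3 and Pmaip1 they were often not near whole numbers, such as 48.6 for Bbc3 in mpEC 1, so they are estimates. The procedure was tested on simulated data. The 200 genes changed were drawn only from those with a mean log2(FPKM + 1) above that of 5 FPKM. The rates therefore do not cover lower members, such as Bbc3 in mpECs and bmECs. Of genes changed by 1 on the log2 scale 89%, 85% and 32% were recovered, and of those changed by 2, 97%, 99% and 78%. The values are in the order of the mpEC and bmEC (11422 genes), Yap1/Taz (11320) and Lats2 (12453) libraries. In the data 2682, 148 and 2711 genes were called, in the same order, so the rates hold only for 200 changed genes. The members and lists were chosen with earlier results of these data known. All 10 members are named, and by rule, of each list and comparison, at most 3 called genes with the largest fold change whose mean reached 5 FPKM. Further list genes were named outside the rule and are marked as named after their values were seen. Alternatives changed the pseudocount, filter, scaling, variance trend, test, replicate block and libraries. No replicates agreed within counting noise. A gene that this rule would name is not reported here.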

Additional observations from a re-analysis of the deposited data

How the results depend on the processing

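The 30 fold changes of members were recomputed under up to 15 alternatives each, 425 values in all, of which 385 kept direction and call, 20 lost the call, 8 gained it and 12 turned sign. In bmECs against mpECs, the members called higher went from 1 to 0, and those called lower from 1 to 0, when only genes of at least 5 FPKM were tested, which removes Bbc3 and Bcl2. Quantile normalization gave 2 called lower, with 1413 of all 11422 genes called lower against 1201 in the main fit. Leaving out 1 library gave 0 called higher each time, with 1006 to 1368 of all 11422 genes called higher against 1481. The fold change of Pmaip1 turned to 0.14 without mpEC 1 and to 0.11 without bmEC 3, in a range of -0.30 to 0.14 when 1 library was left out. In the Yap1/Taz libraries, the members called higher were 0 without a filter and 0 without the variance trend, 2 at 5 FPKM, 2 after quantile normalization, 3 with limma-voom, and 0 to 2 when 1 library was left out. The calls over all genes moved as well, from 100 of 11320 higher in the main fit. They were 0 of 16044 without a filter, 10 of 11320 without the trend and 123 of 7839 at 5 FPKM. Quantile normalization gave 108 of 11320, limma-voom 265 of 11310, and leaving out 1 library 0 to 214 of 11320. Signs turned for Bax (-0.00812 after quantile normalization, -0.0250 with limma-voom, -0.0959 to 0.196 when 1 library was left out), Bak1 (-0.00876 after quantile normalization, -0.0494 to 0.0862 when 1 was left out) and Pmaip1 (-0.14 to 0.37 when 1 was left out). In the Lats2 libraries, 0 members were called higher without a filter and 3 at 5 FPKM. Of all genes, 720 of 19822 were called higher without a filter and 1382 of 8048 at 5 FPKM, against 1468 of 12453 in the main fit. Bcl2l11 ran from -0.0214 to 0.523 when 1 was left out, and the difference in the log2 ratio of Bax to Bcl2 moved from 0.90 to 0.59 after quantile normalization. The causes were not tested.

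Replicate numbers were not taken to pair the libraries, since not every same-numbered correlation was over 0.1. Same-numbered libraries correlated at 0.31, 0.09 and 0.10 in mpECs and bmECs, at -0.18, -0.12 and -0.16 in the Yap1/Taz and at 0.07 in the Lats2 libraries. With the replicate block, 1597 genes were called higher and 1475 lower in bmECs, against 1481 and 1201 without it, 29 and 16 in the Yap1/Taz libraries, against 100 and 48, and 1457 and 1198 in the Lats2 libraries, against 1468 and 1243. With the block, 1 member was called higher and 1 lower in bmECs, 1 higher in the Yap1/Taz and 2 higher in the Lats2 libraries.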
